A study of Mus musculus with 6 samples.

Results

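The MS4A genes described here are Ms4a4a, Ms4a4b, Ms4a4c, Ms4a4d, Ms4a6b, Ms4a6c, Ms4a6d and Ms4a7, the relatives of the B cell antigen CD20 (Ms4a1) that lie together on mouse chromosome 19. They were measured by every probe, controls left out, that the array annotation assigns to 1 of these 8 gene names. This gave 10 probes, 2 each for Ms4a4b and Ms4a7 and 1 for each other gene, of 56605 probes for 36870 gene names on the array. In kidneys of LPR mice, 8 of the 10 probes, standing for 6 of the 8 genes, were higher than in MRL mice, by 6.17-fold to 29.4-fold. No member probe was lower. The probe of Ms4a4a missed the threshold. The probe of Ms4a4c, which holds a long run of alternating T and G, moved as other probes with such a run did.

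The transcriptomic analysis (TA) compared whole kidneys of 3 MRL/MpJ mice (MRL) with those of 3 MRL/MpJ-Fas lpr/lpr mice (LPR), which are named MRL/lpr in the sample labels. All 6 mice were female, 6 months old and kept free of specific pathogens, and they share the MRL/MpJ background, which is itself prone to late autoimmunity. LPR mice carry the lpr mutation of the death receptor gene Fas in all cells and served as a model of lupus nephritis. Each mouse gave 1 array of the same slide, and nothing states whether mice shared a litter. Whole kidney was measured, so more cells of a type and more RNA per cell cannot be told apart.

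Values are background-subtracted Cy3 intensities on the log2 scale after the 75th percentile of the array was subtracted, so 0 is the level of that percentile, and a change is LPR minus MRL. Probes whose signal cleared the background call on 3 or more arrays were tested by limma, which took in 39924 probes and all 10 member probes. The share of spots that cleared it was 69.6% to 70.6% on MRL arrays and 70.7% to 73.5% on LPR arrays, and 0 spots were saturated. Correlations over probes were 0.990 to 0.993 within the groups and 0.961 to 0.971 between them. The brighter Fas probe gave a log2 change of -0.47 (SE 0.24, limma adjusted p = 0.2355), which did not pass. The other Fas probe was above background in 0 of 3 MRL and 3 of 3 LPR mice and was higher in LPR mice (limma adjusted p = 0.0337), so the probes disagree and do not serve as a check of the labels. Markers of proximal tubule were well above background in both groups, with summed log2 levels of 8.79 to 8.95 in MRL and 8.39 to 8.58 in LPR mice, and 2 of 5 fell. The mouse MRL 3 had higher values than MRL 1 and MRL 2 for several member genes, which is given beside each of them.

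MS4A proteins cross the membrane several times and sit in it beside receptors, whose signalling they can modify. CD20 marks B cells and the family's Fc receptor subunit (Ms4a2) marks mast cells, whereas most other members are known from macrophages, monocytes and T cells. Ms4a4b is known from T cells, where its protein can associate with the costimulatory receptor GITR. Ms4a4a and Ms4a7 are known from tissue macrophages, and the Ms4a4a protein can associate with the fungal sugar receptor Dectin-1.

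The probes are 60-base oligonucleotides, printed 5′ to 3′ as the deposited array files give them, with their place on mouse build mm9. These 4 are shown because the results turn on them, and capitals mark the longest run of alternating T and G where it reaches 20 bases, which occurs here in Ms4a4c only.
Ms4a4b, probe A_51_P136294, plus strand, chr19:11537629-11537688: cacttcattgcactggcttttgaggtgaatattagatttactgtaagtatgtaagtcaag
Ms4a7, probe A_55_P1958165, minus strand, chr19:11395903-11395962: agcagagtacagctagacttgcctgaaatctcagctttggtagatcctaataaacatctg
Ms4a6d, probe A_66_P116441, minus strand, chr19:11661601-11661660: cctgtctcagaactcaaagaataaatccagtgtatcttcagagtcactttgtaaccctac
Ms4a4c, probe A_55_P2135980, plus strand, chr19:11500839-11500898: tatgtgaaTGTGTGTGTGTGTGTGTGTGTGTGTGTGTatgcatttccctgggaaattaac
Although the genes are paralogs, no pair among the 45 pairs of member probes shares more than 8 bases in a row. The run of alternating T and G is 29 bases long in the Ms4a4c probe and 2 to 4 bases long in the other 9. Exon and UTR positions of the probes were not analysed here, since no annotation of mm9 was at hand.

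Over all tested probes, 12.6% were called at an adjusted p under 0.05 (limma with Benjamini-Hochberg adjustment), 6.54% as higher and 6.07% as lower in LPR mice. Among the 10 member probes, 8 were called higher and 0 lower. Their median log2 change was 3.42, against -0.13 over all tested probes. The lowest LPR mouse exceeded the highest MRL mouse for 9 of the 10 member probes, against 11.1% of tested probes. A call with a rise of at least 10-fold was made for 6 of the 10, against 1.09%. The size of the rises depends on how background was corrected: with normexp correction at an offset of 50, the same 8 probes were called higher and Ms4a4a as well, but only 2 of the 10, the brighter probes of Ms4a4b and Ms4a7, rose at least 10-fold, against 0.436% of tested probes.

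**Figure D1:**
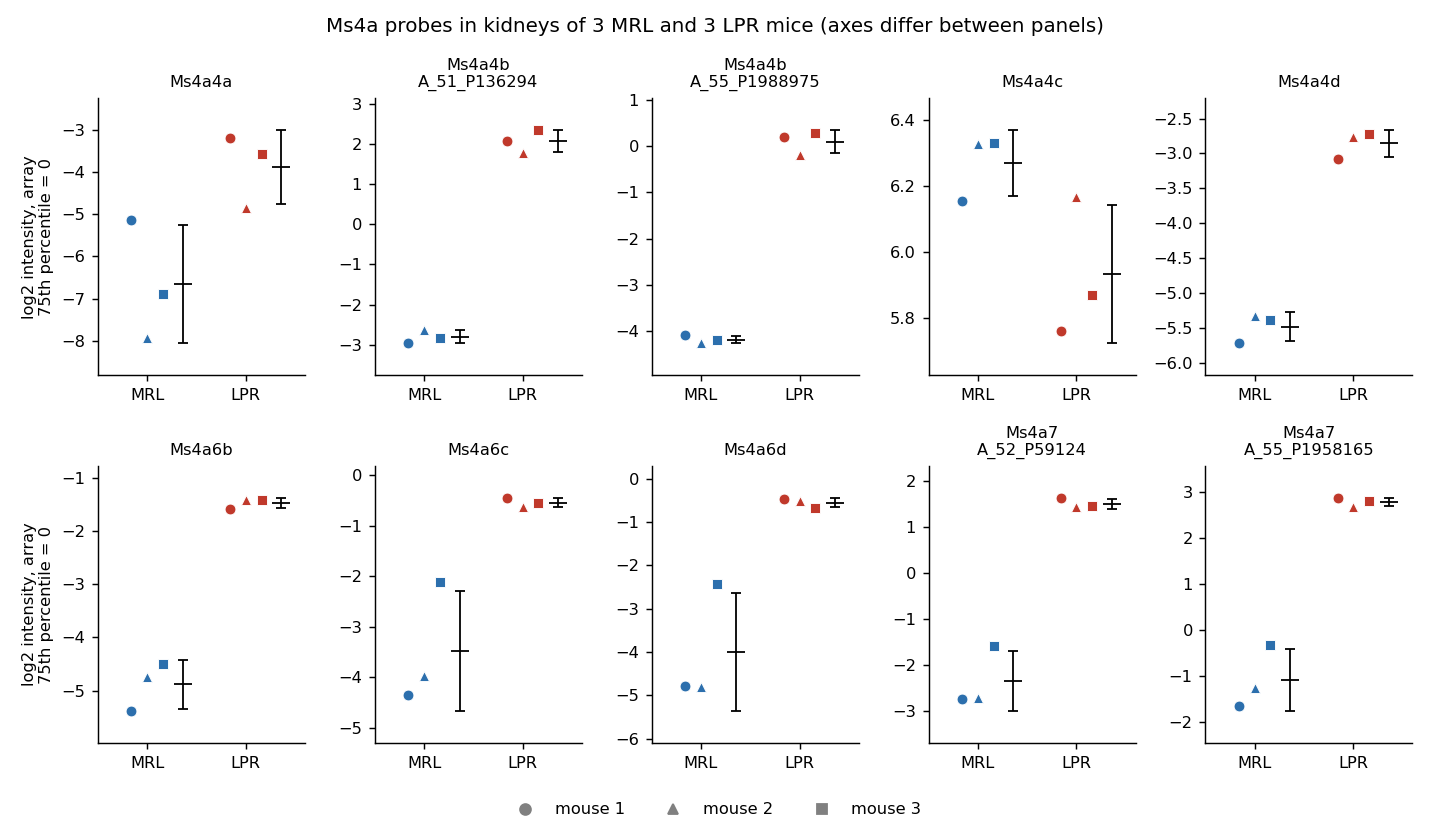
Log2 intensity of each member probe with the array's 75th percentile at 0 (vertical axes, which differ between panels) in 3 MRL mice (blue) and 3 LPR mice (red); symbols mark the mice, and black bars give the mean and SD of 3. The groups overlap for Ms4a4c only, and MRL 3 (blue square) lies above the other MRL mice for Ms4a6c, Ms4a6d and Ms4a7.

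Ms4a4b, the T cell member, had the largest change. Its brighter probe A_51_P136294 (NM_021718) measured -2.95, -2.64 and -2.83 in MRL 1 to 3 and 2.08, 1.79 and 2.34 in LPR 1 to 3. The groups lay 4.42 log2 units apart at their nearest mice. The rise was 29.4-fold, a log2 change of 4.88 (SE 0.17, limma adjusted p = 1.361e-05). By the size of its rise it ranked 178 among the 39924 tested probes, and with normexp correction it was 18.7-fold.

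The other Ms4a4b probe, A_55_P1988975 (ENSMUST00000142135), lies at chr19:11532299-11532358 on the plus strand, upstream of the brighter one. It measured -4.09, -4.25 and -4.20 in MRL mice and 0.20, -0.19 and 0.29 in LPR mice. LPR 2 was the lowest LPR mouse on both probes, and the MRL mice differed by at most 0.32. The rise was 19.4-fold, with a log2 change of 4.28 (SE 0.15, limma adjusted p = 1.361e-05), and 8.08-fold with normexp correction. Within an array, the brighter probe exceeded the other by 1.37 ± 0.24 log2 units (SD, n = 3) for the MRL group and by 1.97 ± 0.09 (SD, n = 3) for the LPR group. The groups did not overlap in this quantity and differed by 0.60, with an exact two-sided permutation p of 0.1, the smallest that 3 against 3 mice allow.

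Ms4a7, a macrophage member, had the next largest change. Its brighter probe A_55_P1958165 (NM_001276398) measured -1.65, -1.27 and -0.33 in MRL mice and 2.86, 2.68 and 2.80 in LPR mice. The probe A_52_P59124 (NM_001025610, chr19:11396004-11396063, minus strand) measured -2.74, -2.72 and -1.60 in MRL mice and 1.63, 1.42 and 1.46 in LPR mice. On both probes MRL 3 was the highest MRL mouse, and the lowest LPR mouse stood about 3.0 log2 units above it. Both rose 14.5-fold, with a log2 change of 3.86 (SE 0.32 and 0.31, limma adjusted p = 0.0004005 and 0.0003514). Without MRL 3 the change was 4.24 on both, or 18.9-fold.

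Ms4a6d and Ms4a6c, which are known from monocytes and macrophages, rose with the widest spread among MRL mice of the genes that passed. The Ms4a6d probe (NM_026835) measured -4.78, -4.80 and -2.43 in MRL mice and -0.47, -0.50 and -0.68 in LPR mice. MRL 3 was 5.13-fold above the mean of the other MRL mice, yet 1.75 log2 units below the lowest LPR mouse. The rise was 10.9-fold, with a log2 change of 3.45 (SE 0.61, limma adjusted p = 0.01357). It was 4.68-fold with normexp correction, 18.3-fold with the slide column as a block and 18.8-fold without MRL 3. With the slide row as a block in limma it did not pass (adjusted p = 0.1125).

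The Ms4a6c probe A_51_P193146 (NM_028595, chr19:11545580-11545639, plus strand) measured -4.34, -3.97 and -2.12 in MRL mice and -0.45, -0.63 and -0.54 in LPR mice. MRL 3 was again the high MRL mouse, 4.11-fold above the mean of the others, and the LPR mice lay within 0.18. The rise was 7.65-fold, with a log2 change of 2.94 (SE 0.53, limma adjusted p = 0.01526). It was 4.09-fold with normexp correction, 11.9-fold with the slide column as a block and 12.3-fold without MRL 3. It did not pass in limma without LPR 1 (adjusted p = 0.05347), without LPR 3 (adjusted p = 0.05048) or with the slide row as a block (adjusted p = 0.1176).

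Ms4a6b, which is known from T cells as well as myeloid cells, was the member of its subfamily with the steadiest MRL values. Its probe A_55_P2622800 (NM_027209, chr19:11601297-11601356, plus strand) measured -5.39, -4.74 and -4.50 in MRL mice and -1.59, -1.43 and -1.42 in LPR mice. All LPR mice lay at least 2.91 log2 units above all MRL mice. The rise was 10.6-fold, with a log2 change of 3.40 (SE 0.22, limma adjusted p = 0.0001533), and 3.75-fold with normexp correction.

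Ms4a4d was near the detection limit in MRL mice. Its probe A_52_P211956 (NM_025658, plus strand) covers chr19:11629387-11630711 on mm9, a stretch of 1325 bases for 60 bases of probe. It measured -5.72, -5.33 and -5.39 in MRL mice, of which 2 were well above background, and -3.08, -2.77 and -2.72 in LPR mice. The groups did not overlap, and the rise was 6.17-fold, with a log2 change of 2.62 (SE 0.16, limma adjusted p = 9.674e-05). Normexp correction gave a log2 change of 0.93, or 1.91-fold, which still passed.

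Ms4a4a, whose protein is known as a partner of Dectin-1 on macrophages, did not pass. Its probe A_55_P2040485 (NM_001310331, chr19:11467221-11467280, plus strand) measured -5.14, -7.92 and -6.90 in MRL mice and -3.19, -4.86 and -3.57 in LPR mice. Only 1 of 3 MRL mice was well above background, and LPR 2 exceeded MRL 1 by 0.28, so the groups did not overlap. The log2 change was 2.78 (SE 0.73, limma adjusted p = 0.05305), with a 95% interval of 1.04 to 4.52. Its adjusted p ranged from 0.009004 to 0.1741 over the alternatives, and it passed under 7 of 20 of them, 1 of which used p-values without adjustment. The intensities of the MRL mice, between 2.91 and 20.6, were low, and normexp correction brought the log2 change to 0.48. It was 1.82 with a floor at the detection limit, 3.46 with the slide row as a block, 3.54 without MRL 1 and 2.14 without MRL 2.

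**Figure D2:**
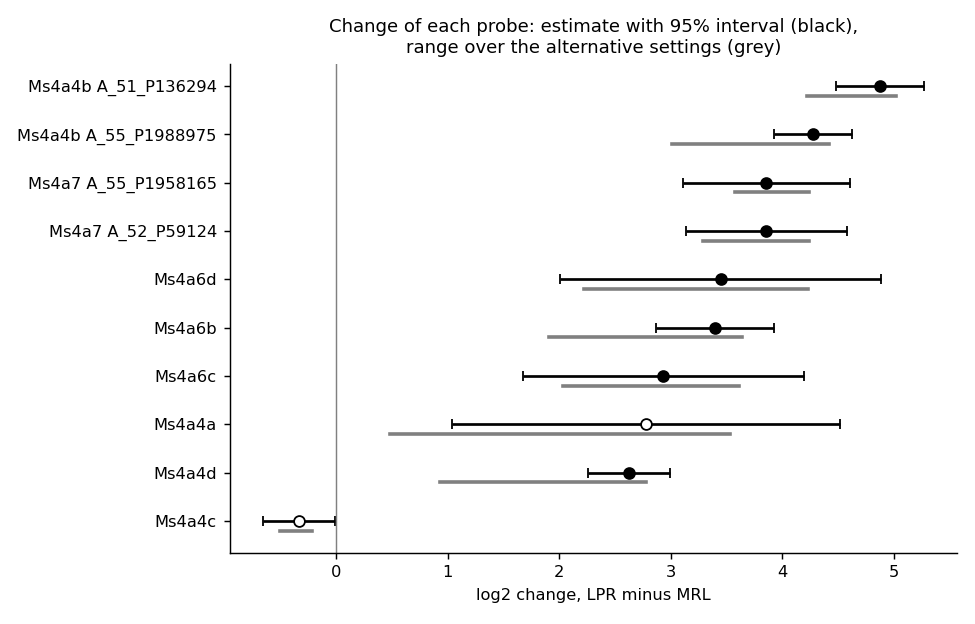
Log2 change, LPR minus MRL, of the 10 member probes with its 95% interval (black; filled where the limma adjusted p was under 0.05), and below each the lowest to highest estimate over the alternative settings (grey). The estimates of the 8 probes that passed run from 2.62 for Ms4a4d to 4.88 for Ms4a4b, and their intervals lie wholly above 0. The Ms4a4a and Ms4a4c probes (open) did not pass, although their intervals also leave out 0.

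In the order of the changes, Ms4a4b was followed by Ms4a7, Ms4a6d, Ms4a6b, Ms4a6c, Ms4a4a and Ms4a4d. The 95% intervals of neighbours in this order overlap, from 4.48 to 5.28 for the brighter Ms4a4b probe and from 3.11 to 4.61 for the brighter Ms4a7 probe at the top. The interval of Ms4a4d, from 2.26 to 2.99, lies wholly below those of Ms4a4b and Ms4a7. Differences between the genes' changes were not tested.

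Ms4a4c, the nearest paralog of Ms4a4b by its promoter, stood apart from all other members. Its probe (NM_029499) measured 6.16, 6.33 and 6.33 in MRL mice and 5.76, 6.17 and 5.87 in LPR mice. LPR 2 lay above MRL 1, so the groups overlapped. Before the percentile was subtracted, the intensities were 51814, 56665 and 56236 in MRL mice and 50426, 52355 and 43920 in LPR mice. The 75th percentile was 930 in LPR 1 and between 700 and 751 on the other arrays. The part of this scaling in the probe's pattern over the arrays was not tested. The log2 change of -0.34 (SE 0.14, 95% interval -0.66 to -0.01) did not pass in limma (adjusted p = 0.1521), and it did not pass under any of the 21 alternatives, with adjusted p from 0.05559 to 0.5829.

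The repeat printed in capitals above is shared by the probes of the 3 named genes whose pattern over the 6 arrays was most like that of Ms4a4c. Likeness was measured as the root mean square (RMS) difference of the 6 log2 values after each probe was centred on its own mean. These genes were Pdp2, Mcam and Arl6ip6, at RMS distances of 0.0097, 0.0109 and 0.0136, and their probes, all on the plus strand of mm9, are printed with the run of alternating T and G in capitals.
Pdp2, probe A_55_P2788443, chr8:107119568-107119627: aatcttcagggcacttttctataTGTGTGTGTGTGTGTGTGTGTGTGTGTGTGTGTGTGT
Mcam, probe A_55_P1986552, chr9:43950664-43950723: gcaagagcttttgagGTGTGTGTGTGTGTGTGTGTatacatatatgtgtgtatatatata
Arl6ip6, probe A_55_P2042993, chr2:53077649-53077708: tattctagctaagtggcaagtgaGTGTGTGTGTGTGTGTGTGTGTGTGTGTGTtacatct
These are genes on other chromosomes that are known for other functions, a phosphatase subunit, an adhesion molecule and a protein that binds a small GTPase. Their log2 changes were -0.35, -0.34 and -0.34, against -0.34 for Ms4a4c. Because the groups and arrays are shared, the likeness is a description and was not tested.

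The same held for every tested probe with such a run. Apart from Ms4a4c, 47 tested probes of 47 gene names have a run of at least 20 bases, 20 to 41 bases long, and their log2 changes lay between -0.41 and -0.24. None was called (0 higher, 0 lower). All 47 lay within an RMS distance of 0.1 of the Ms4a4c probe, against 3.9% of tested probes with a shorter run. The probes with the run were also brighter, so the shares were also set at like level: among the 6704 tested probes with a shorter run and a mean level no lower than the lowest of the 47, the share within that distance was 11.5%. Of the 20 nearest probes, 13 carried such a run and 7 did not, against 0.12% of all tested probes with a value on every array. For comparison, 0 of 32 probes with a run of at least 20 bases of alternating A and C, the complementary repeat, lay within that distance, and their median log2 change was -0.16. The part that transcripts other than Ms4a4c have in this probe's signal was not tested, and there is no other Ms4a4c probe on the array.

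**Figure D3:**
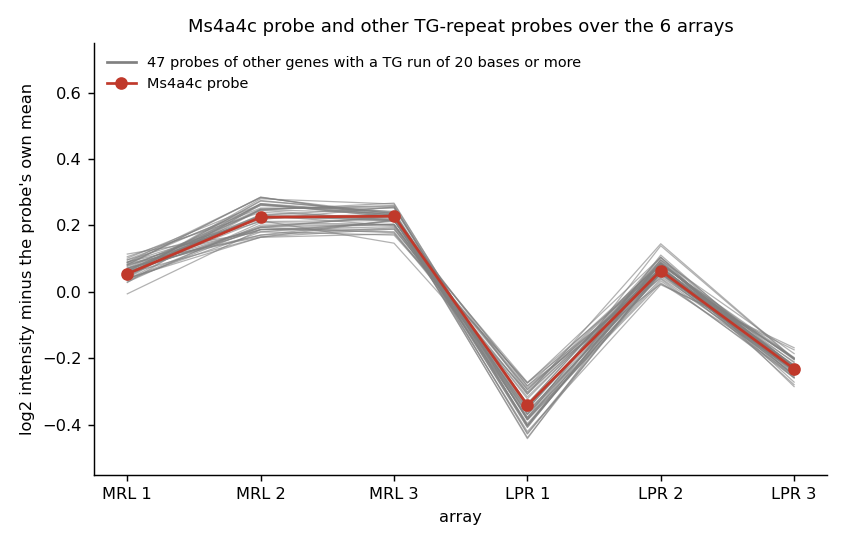
Log2 intensity minus the probe's own mean over the 6 arrays (vertical axis) by array for the Ms4a4c probe (red) and the 47 tested probes of other genes with a run of alternating T and G of 20 bases or more (grey). The Ms4a4c probe lies within the grey lines on every array, lowest in LPR 1 at -0.34 and highest in MRL 3 at 0.23.

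The values of MRL 3 divided the members that rose. MRL 3 exceeded the mean of MRL 1 and MRL 2 by 2.36 log2 units for Ms4a6d, 2.04 for Ms4a6c and 1.13 for both Ms4a7 probes. Only 0.0827%, 0.125% and 0.614% of tested probes had MRL 3 further above. For Ms4a6b the excess was 0.56, for Ms4a4d 0.14, and for the Ms4a4b probes -0.04 and -0.03. Macrophage markers moved with it in part: MRL 3 was the highest MRL mouse for 9 of 14 markers, with a median excess of 0.22. The largest excess was that of Adgre1 (F4/80), which measured -1.55, -1.75 and 0.70 in MRL mice. Aif1 (Iba1) came next, with -0.91, -0.63 and 0.57. MRL 3 lay below the mean of the others for Mrc1 (-0.48), Itgam (-0.32), Cd163 (-0.23) and Csf1r (-0.01). Among monocyte markers MRL 3 was highest for 5 of 6, also with a median excess of 0.22. The share of all tested probes with MRL 3 highest was not counted. MRL 3 was highest for 0 of 11 T cell markers. The part of macrophage number in the MRL 3 values of Ms4a6c, Ms4a6d and Ms4a7 was not tested.

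**Figure D4:**
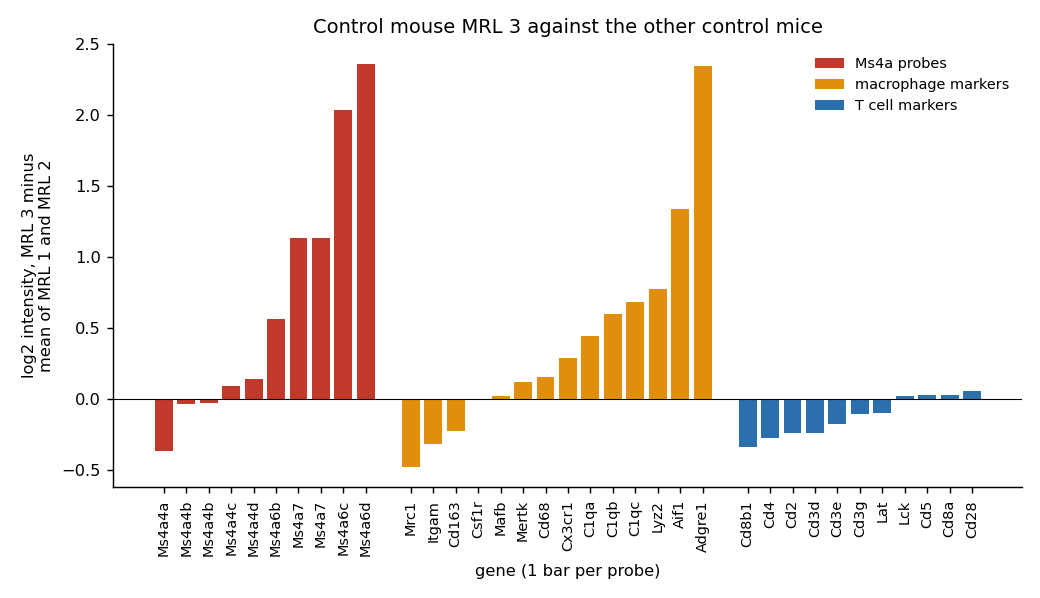
Log2 intensity of MRL 3 minus the mean of MRL 1 and MRL 2 (vertical axis, 1 bar per probe) for the member probes, the 14 macrophage markers and the 11 T cell markers. Ms4a6d, Ms4a6c and Adgre1 exceed 2 log2 units. The other macrophage markers lie between -0.48 and 1.34, and the T cell markers between -0.34 and 0.06.

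Leukocyte markers rose alongside the members. Of 14 macrophage markers 11 were higher and 0 lower in LPR mice, with a median log2 change of 2.74 and summed log2 levels of 5.35 to 5.64 in MRL and 7.33 to 7.44 in LPR mice. Of 11 T cell markers 10 were higher and 0 lower, with a median of 3.26 and summed log2 levels of 1.66 to 1.87 and 4.01 to 4.21. Each of these markers was well above background in at least 1 MRL mouse. Monocyte (4 of 6), regulatory T cell (2 of 4), NK cell (3 of 4 tested), B cell (3 of 5 tested), plasma cell (4 of 5), dendritic cell (3 of 6) and neutrophil markers (3 of 6) also rose in part, whereas 0 of 4 tested mast cell markers passed. The part of cell numbers in the rise of the members was not tested.

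The members were also set against the mean of these marker lists within each mouse. Ms4a4b rose by 2.11 log2 units more than the T cell marker mean on its brighter probe and 1.51 more on the other, and the groups did not overlap on either. That mean, whose change was 2.77, includes Cd8a (0.03) and Cd4 (0.54), and single T cell markers rose about as much as Ms4a4b, such as Cd2 by 4.64, Cd3g by 4.15 and Cd3d by 4.14. Ms4a7 rose by 1.88 more than the macrophage marker mean on both probes, with no overlap. Ms4a6d rose by 1.47 more than the macrophage mean with no overlap. The nearest mice were almost level, however, with MRL 3 at -2.69 and LPR 3 at -2.67 against that mean. Its MRL mice had an SD of 1.13 in this quantity. Ms4a6c rose by 0.96 more than the macrophage mean, with overlapping groups. Ms4a4d rose by 0.65 more than the macrophage mean with no overlap, and its change differed from that of the T cell mean by -0.14, with overlapping groups. Ms4a6b rose by 1.42 more than the macrophage mean and 0.63 more than the T cell mean, with no overlap on either. Ms4a4b also exceeded the macrophage mean, by 2.90 and 2.30, and Ms4a7 the T cell mean, by 1.09 on both probes, without overlap. Ms4a6d and Ms4a6c rose by 0.68 and 0.17 more than the T cell mean, with overlapping groups. The comparison therefore does not assign a member to a cell type.

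Genes known to work with MS4A proteins rose as well. Of 10 fixed in a list 9 were tested, and 8 were higher and 0 lower. Tnfrsf18 (GITR), the partner of Ms4a4b, rose by 3.35 on the log2 scale (SE 0.18, limma adjusted p = 6.208e-05). Clec7a (Dectin-1), the partner of Ms4a4a, rose by 3.63 on its brighter probe and 1.10 on the other. Among further myeloid receptors and adaptors, Trem2 rose by 3.45, Fcer1g by 3.07 and Tyrobp by 2.83. The antigen presentation genes Cd74 and H2-Ab1 rose by 3.71 and 3.55 and Lgals3 by 0.72, whereas Nlrp3 changed by -0.42 and did not pass (limma adjusted p = 0.2684). Vsig4 was above background in 2 LPR mice and no MRL mouse and was not tested.

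Other MS4A relatives rose in part. Of 17 listed genes, including the related Tmem176a and Tmem176b, 13 were on the array, 7 were tested and 2 were higher by the probe that stands for the gene. Ms4a8a was at least 2.02-fold higher. As no MRL mouse was well above background, the MRL values were raised for this bound to the lowest signal above background on their arrays. The limma test used the values as measured, with a log2 change of 2.11 (adjusted p = 0.03455). This probe was above background in 3 of 3 LPR mice, whereas the other Ms4a8a probe was so in no mouse and was not tested. Ms4a14 rose by 1.86 (SE 0.47, limma adjusted p = 0.04584), with 1 of 3 MRL mice above background. The probes of CD20 disagreed: the brighter Ms4a1 probe changed by -0.70 and did not pass (limma adjusted p = 0.05035), whereas the other rose by 4.99 (SE 0.62, limma adjusted p = 0.002818). Ms4a2, the mast cell member, changed by -0.39 and did not pass (limma adjusted p = 0.4039).

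The member probes span 265.758 kb of chromosome 19. Between them lie 5 probes of other gene names, of which 3 were tested and 2 were higher. Gm8369 was higher by at least 14.2-fold, as it was above background in no MRL mouse, and the transcript ENSMUST00000087884 rose by 2.67 (limma adjusted p = 0.009069). Within 500 kb on either side of the cluster, 27 further probes were tested, 7 were higher, 0 lower, and their median log2 change was -0.09. Those 7 were the probes of Slc15a3 (2.39), AW112010 (3.63), Ms4a8a, the dimmer probe of Ms4a1, Ms4a14, Oosp2 (at least 1.34-fold) and Oosp1 (at least 32.8-fold), a gene known from oocytes.

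**Figure D5:**
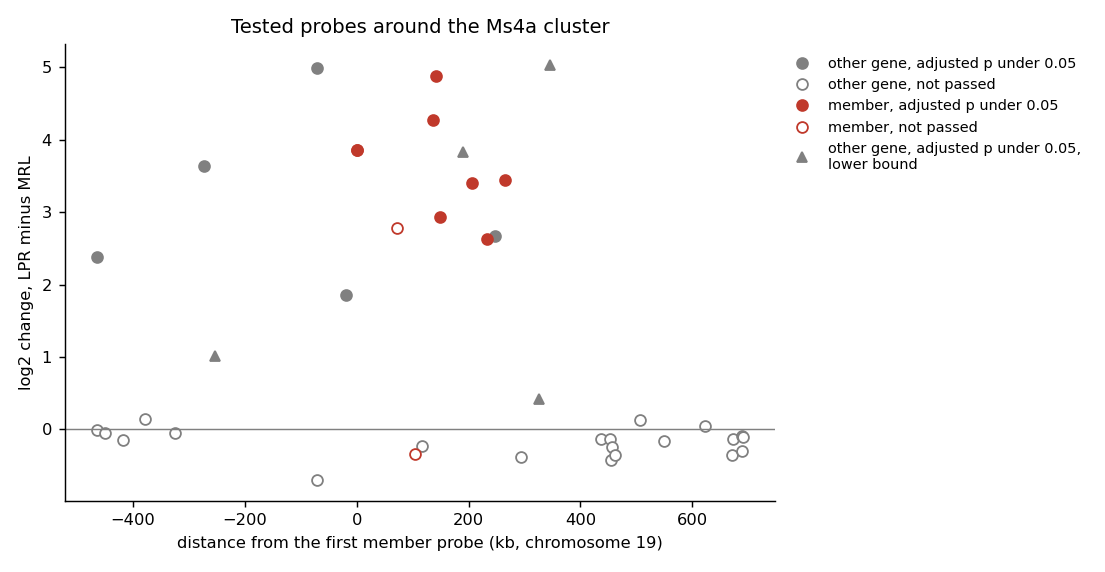
Log2 change, LPR minus MRL (vertical axis), of tested probes by distance in kb from the first member probe on chromosome 19; members are red, other genes grey, filled where the adjusted p was under 0.05, and triangles are lower bounds for genes above background in no MRL mouse. Most other genes on both sides lie near 0, with a median of -0.09 outside the cluster.

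The patterns most like each member over the 6 arrays were sought among 27263 probes of named genes above background on all arrays. Ms4a4a and Ms4a4d were left out, since they were not above background on every array. For Ms4a4b the nearest were Tgtp2, an interferon-induced GTPase, and the chemokines Ccl4 and Ccl5, at RMS distances of 0.198, 0.229 and 0.247. For Ms4a6b they were the T cell kinase gene Zap70 (0.0996), the complement gene C1qb (0.109) and the lymphotoxin gene Ltb (0.129). Ms4a6c was nearest to Cd72 (0.197) and Adgre1 (0.201), and Ms4a6d to Cd72 (0.154), Clec4a1 (0.197) and Clec12a (0.198), so Cd72 was the nearest of both. For the brighter Ms4a7 probe they were Bcl2a1d (0.0831), Clec4a3 (0.148) and Trpm2 (0.155). Such distances are small partly because all of these genes differ between the groups on the same 6 arrays.

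Promoters, from 250 bases before to 50 after the transcript start, were available from RefSeq (GRCm38.p6) for 7 of the 8 genes, Ms4a6d being the exception. They are shown for the pairs of neighbouring paralogs whose promoters were alike, with capitals for bases in runs of at least 12 that the partner also holds. For Ms4a4b, which rose most, and Ms4a4c, whose probe did not pass, they read as follows.
Ms4a4b, plus strand, chr19:11443308-11443607: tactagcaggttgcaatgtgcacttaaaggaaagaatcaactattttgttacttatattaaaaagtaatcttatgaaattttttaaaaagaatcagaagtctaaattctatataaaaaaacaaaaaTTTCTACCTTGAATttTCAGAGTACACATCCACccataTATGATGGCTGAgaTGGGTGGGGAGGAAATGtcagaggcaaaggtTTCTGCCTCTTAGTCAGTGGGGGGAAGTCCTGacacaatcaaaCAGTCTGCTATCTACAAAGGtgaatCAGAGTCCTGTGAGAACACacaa
Ms4a4c, plus strand, chr19:11407411-11407710: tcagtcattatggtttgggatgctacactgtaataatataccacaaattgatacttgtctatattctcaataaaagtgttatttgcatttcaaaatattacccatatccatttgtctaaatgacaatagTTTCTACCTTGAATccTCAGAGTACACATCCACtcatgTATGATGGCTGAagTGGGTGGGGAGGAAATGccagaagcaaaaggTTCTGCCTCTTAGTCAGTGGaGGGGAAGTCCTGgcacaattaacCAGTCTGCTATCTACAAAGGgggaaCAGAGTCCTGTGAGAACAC
In a global alignment 230 of 300 positions (76.7%) were identical, with 131 bases in shared runs. For Ms4a6b and Ms4a6c, which both rose, they read as follows.
Ms4a6b, plus strand, chr19:11518309-11518608: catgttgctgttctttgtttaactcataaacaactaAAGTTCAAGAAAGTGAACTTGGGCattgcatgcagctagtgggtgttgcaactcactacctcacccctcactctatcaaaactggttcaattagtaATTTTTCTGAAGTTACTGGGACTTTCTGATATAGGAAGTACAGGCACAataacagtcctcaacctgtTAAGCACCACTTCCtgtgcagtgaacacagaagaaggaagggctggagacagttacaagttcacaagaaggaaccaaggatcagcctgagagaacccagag
Ms4a6c, plus strand, chr19:11469118-11469417: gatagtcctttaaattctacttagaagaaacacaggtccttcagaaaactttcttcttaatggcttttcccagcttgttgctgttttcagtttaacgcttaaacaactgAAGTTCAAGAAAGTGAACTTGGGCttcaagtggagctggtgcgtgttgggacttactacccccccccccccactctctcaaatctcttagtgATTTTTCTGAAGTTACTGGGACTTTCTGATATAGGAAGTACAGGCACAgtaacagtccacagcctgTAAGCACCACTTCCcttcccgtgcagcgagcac
Here 192 of 300 positions (64.0%) were identical, and the longest shared run was 48 bases. Ms4a7 entered the pairs with only 1 of its 2 promoters, the one that holds the letters GAGGAA. In the other 19 pairs of the 7 genes' promoters, identity was 50.3% to 57.7% and no shared run exceeded 13 bases. The letters GAGGAA, the core bound by the myeloid factor PU.1, searched on both strands, were in 3 of 8 promoters (Ms4a4b, Ms4a4c and 1 of 2 for Ms4a7), against 28.3% of 32851 promoters. In Ms4a4b and Ms4a4c they lie inside a shared run. The letters TTCNNNGAA, which STAT factors bind, were in 0 of the 8 windows, against 8.3% of all promoters, also on both strands.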

How the data were processed

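Total RNA of 6 kidneys was labelled with Cy3 and hybridized to Agilent SurePrint G3 mouse arrays. The paper names Trizol for RNA isolation, whereas the labels name a column kit. Per the file headers and the submitters' processing notes, the authors extracted intensities with Feature Extraction 12.0.3.1, which subtracted the background and detrended each array. The authors also deposited a table of linear ratios, found here to equal each array's intensities over a constant, its 75th percentile with control spots counted in. It is not centred, and its column median was 0.0883 for MRL 1. The flags for control spots, outliers and background were used as deposited.

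Outlier spots (73 to 90 of 59305 per array) were left out. The log2 of the intensity minus the 75th percentile of the array was averaged over the spots of a probe. The fit used limma (version 3.58.1, R 4.3.3), and p-values over 39924 probes were adjusted by the Benjamini-Hochberg method. A p-value measures the spread between 3 mice a group, and the number of arrays limits the precision. Exact tests of 3 against 3 cannot go below 0.1. The brightest tested probe stands for a gene. All member probes were named, with the 3 genes nearest in pattern to each member above background on all arrays, and genes of the lists that a comparison turned on. One of the nearest genes is not reported here. Lists comprised other MS4A relatives, partners, chromosome neighbours and markers of 15 cell types. The members, lists, motifs and the repeat length were chosen with earlier results of these data known.

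Alternatives were normexp, quantile, median and detected-probe scaling, the deposited table, other filters, a floor, outliers kept, an intensity trend, blocks for replicate number, slide row and slide column, the methods' t-test, and each mouse left out. The methods' t-test served as an alternative only. Plots were made in python 3.11.15 (matplotlib 3.10.9).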

Additional observations from a re-analysis of the deposited data

How the results depend on the processing

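The count of member probes higher in LPR mice was 8 and stayed between 6 and 9 over 21 alternatives, the count of genes between 4 and 7, and 0 member probes were lower under all of them. The lowest counts came with the slide row as a block and with the methods' t-test after adjustment, where Ms4a6c and Ms4a6d did not pass. Both Ms4a4b and both Ms4a7 probes, Ms4a6b and Ms4a4d passed under every alternative that was run for them. Normexp correction gave the lowest change for 8 of the 10 probes, and no direction turned for any.

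Over all tested probes, the count of lower probes moved from 2423 to 4542 with normexp, 1086 without a filter on dim probes, 456 with the slide row and 1007 with the slide column as a block, 7103 with the methods' t-test unadjusted and 1345 adjusted, and 749 to 2270 with 1 mouse left out. Higher probes moved from 2610 to 1469 with the slide row as a block and to 1732 with the adjusted methods' t-test, and were 1968 to 2378 with 1 mouse left out. The share of calls that were higher was 51.9%, against 35.8% with normexp. The causes were not tested.

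Same-numbered mice did not deviate together (correlations of 0.12, 0.02 and 0.01 over probes), so the replicate numbers were not taken to pair them. With the replicate number as a block, 1107 probes were lower, Ms4a4a passed (log2 change 2.78, limma adjusted p = 0.009004) and no other member call changed.

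Ms4a4a and Ms4a4d lay near background in MRL mice, which limits the precision of their changes. With 3 mice a group, on 1 slide whose row 1 held all MRL mice and LPR 1, the slide row is partly shared with the group.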

Other observations

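The LPR mice were close to each other for the Ms4a6 genes and Ms4a7, with ranges over the 3 mice of 0.18 for Ms4a6b and Ms4a6c, 0.21 for Ms4a6d, and 0.20 and 0.18 for the Ms4a7 probes. For Ms4a4b the LPR range was 0.56 on the brighter probe and 0.48 on the other, with LPR 2 lowest on both, and for Ms4a4a it was 1.67, the widest of the members, again with LPR 2 lowest. Of the 2 transcripts inside the cluster that rose beside the members, Gm8369 lies between the Ms4a6c and Ms4a6b probes and ENSMUST00000087884 between those of Ms4a4d and Ms4a6d. Among markers of resident kidney cells, 0 of 5 podocyte markers, 0 of 4 markers of thick ascending limb and distal tubule and 0 of 4 collecting duct markers passed in limma, and 1 of 5 endothelial markers was lower.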
